A study of Mus musculus with 2 samples.

Results

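The neurotrophin system of the mouse cortex is described here at the level of DNA accessibility, through 5 genes: the ligands Bdnf (brain-derived neurotrophic factor) and Ntf3 (neurotrophin-3), the receptor kinases Ntrk2 (TrkB) and Ntrk3 (TrkC), and Ngfr, which encodes the p75 neurotrophin receptor. The genes were taken by name and not by a limit on a measured value, and are 5 of the 21938 protein-coding genes of the GENCODE M21 annotation on the mm10 genome. For each gene the locus was the gene body with 10 kb on either side, and every distinct annotated transcript start was treated as a promoter of its own, with a window of 500 bp on either side. This gave 41 start sites, of 93513 in all protein-coding genes. DNase-seq, which maps where the nuclease DNase I cuts accessible chromatin, had been run on 2 mice, both 2 months old and female, of the B6CASTF1/J hybrid, from whose brains the left cerebral cortex was taken. The hybrid is the F1 of the C57BL/6J and CAST/EiJ strains, no allele was engineered and no treatment is recorded. The series holds 1 group with 1 library per animal, called replicate 1 and replicate 2, so no condition was contrasted and every value below is a description. The labels number the animals separately but give both the same donor entry, so the spread between the replicates may be technical. The tissue is bulk cortex, so that accessibility in fewer cells and weaker accessibility per cell cannot be told apart.

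Neurotrophins are secreted growth factors that are made as larger precursors and cut to the mature form. Mature BDNF acts through TrkB and mature NT-3 mainly through TrkC, while p75 binds all of the neurotrophins and, with the sorting receptor sortilin, their precursors. In the cortex BDNF is known for activity-dependent synthesis in excitatory neurons, and its gene is read from many alternative 5′ exons that are each spliced to 1 shared coding exon. Ntrk2 and Ntrk3 each give a full-length kinase and truncated forms without the kinase, and astrocytes mainly make the truncated TrkB.

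Peak signal is the authors' value for each peak in the larger of the 2 peak lists deposited for each library. The signals were whole multiples of 0.00484 in replicate 1 and of 0.0048 in replicate 2. If 1 step is 1 cut and the signal is scaled per 1 M cuts, which the files do not state, the libraries held 206 and 208 M cuts. The lists held 128323 and 119651 peaks, and 340109 and 284674 footprints, which are short protected stretches inside accessible DNA, had been called. Overlapping peaks, from 1 bp of overlap on, were joined into merged peaks, which are called shared where both libraries contributed. Over all protein-coding genes 64.3% had a shared peak at a promoter. Of the markers of excitatory neurons 6 of 6 had one (median signal 1.44), as did 5 of 6 of inhibitory neurons (0.68). Of astrocyte markers 4 of 6 had one (1.03), and of oligodendrocyte markers 2 of 5 (1.41). The same held for 1 of 4 genes of endothelium and pericytes (0.654), 3 of 3 of meningeal fibroblasts (0.57) and 4 of 5 of basal forebrain cholinergic neurons. The cholinergic genes had a median signal of 0.492, and the one without a peak was Chat. None of the 4 microglial genes and none of the 4 genes of cells outside the brain had one.

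Bdnf had more separate promoter peaks than nearly all other genes, and also more start sites than most, while its fellow ligand Ntf3 had 1 weak promoter peak. Ntrk2 had the strongest promoter of the 5 genes, and the promoters of Ntrk3 and Ngfr were weaker than most. Of the 41 start sites, 25 (61%) had a shared peak in their window, against 52.3% of all start sites of protein-coding genes. By gene these were 8 of 9 start sites of Bdnf, 1 of 3 of Ntf3, 7 of 9 of Ntrk2, 8 of 19 of Ntrk3 and the single start site of Ngfr. All 5 genes therefore had a shared peak at some start site, as did 64.3% of protein-coding genes. The start base itself lay in a shared peak at 18 start sites (43.9%), against 40.2% over all genes. Start sites within 500 bp of each other share peaks. Joined at that distance the 41 become 26 groups, of which 13 had a shared peak. The start sites of all genes were not joined in this way, so these 13 have no matching share over the genome. The mean signal of the strongest promoter peak was 3.88 at Ntrk2, 2.06 at Bdnf, 1.35 at Ntrk3, 1.12 at Ngfr and 0.395 at Ntf3, and the median over the 14104 genes that have one was 2.94. On the percentile scale of those genes this is 66.8 for Ntrk2, 33.9 for Bdnf, 20.8 for Ntrk3, 16.5 for Ngfr and 1.83 for Ntf3. The Bdnf value comes from an intronic peak centred 552 bp from the Bdnf-204 start, which reaches the window only with its edge. The strongest Bdnf peak centred inside a start-site window, that of Bdnf-206, had a mean of 1.56.

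**Figure D1:**
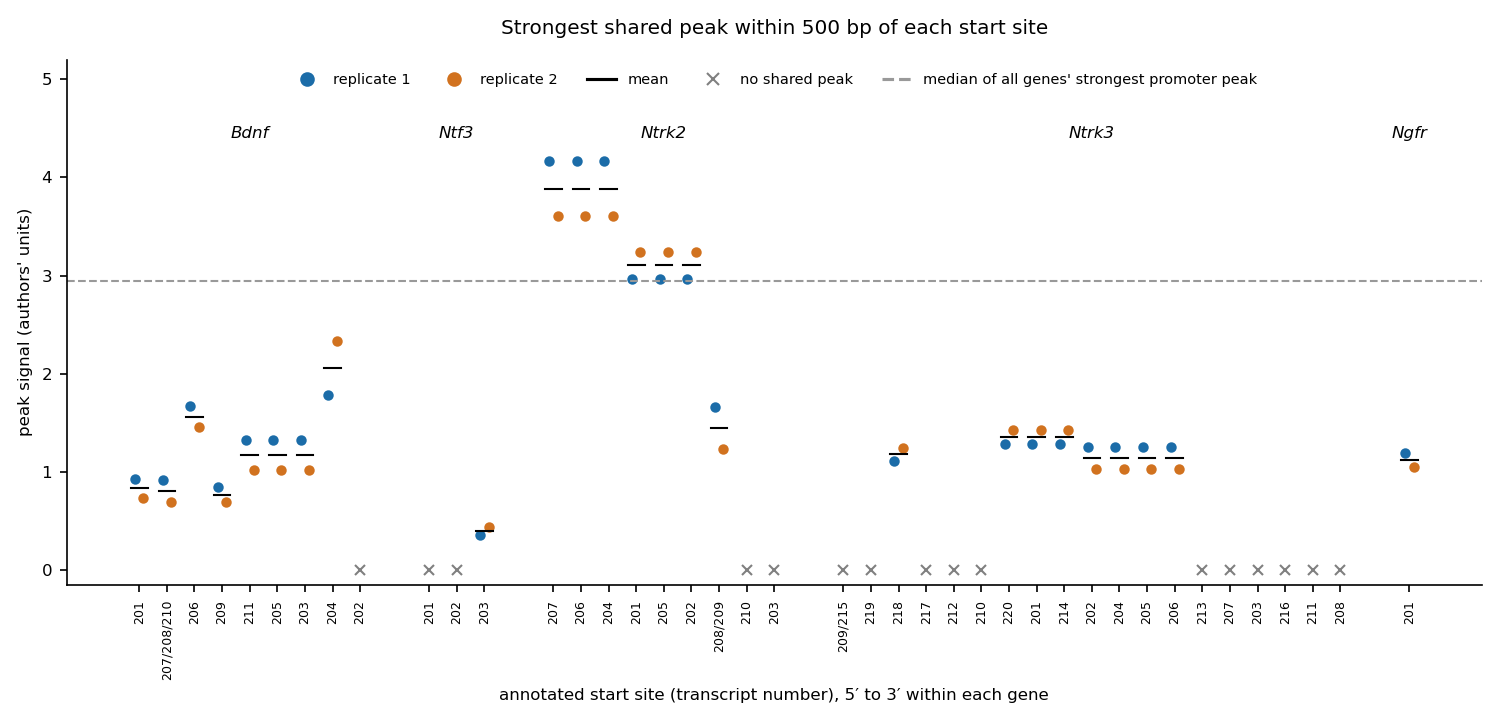
Signal (authors' units, linear axis) of the strongest shared peak within 500 bp of each of the 41 start sites, ordered 5′ to 3′ within each gene, with replicate 1 and replicate 2 as dots and their mean as a bar. Crosses mark start sites with no shared peak. The dashed line is the median of 2.94 over the 14104 genes with a shared promoter peak, each taken by its strongest one. Start sites of Ntrk2 reach 3.88 on average, the 8 accessible start sites of Bdnf lie between 0.77 and 2.06, and 16 of the 41 start sites have no shared peak.

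Bdnf spans 52308 bp of chromosome 2 (109674700 to 109727007, plus strand). Its 9 start sites fall into a 5′ group of 3, a middle group of 5 and 1 far start site, and the first 2 groups are where the accessible DNA lies. All but the last of the sequences below come from the strongest shared peak that reaches each start-site window. They are shown because the separate peaks at start sites are the main feature of the gene. The last sequence is from an intron peak more than 1 kb from every start site. Each is the stretch of up to 260 bases, outside annotated untranslated regions, that holds the most bases in footprints. The printed stretch can therefore lie up to or beyond the edge of the 500 bp window, as that by the Bdnf-207 start does. They are the C57BL/6J reference sequence on the sense strand of the gene, 5′ to 3′, and capitals mark bases inside a footprint of both libraries.
Peak upstream of the Bdnf-201 start, chr2:109674061-109674320: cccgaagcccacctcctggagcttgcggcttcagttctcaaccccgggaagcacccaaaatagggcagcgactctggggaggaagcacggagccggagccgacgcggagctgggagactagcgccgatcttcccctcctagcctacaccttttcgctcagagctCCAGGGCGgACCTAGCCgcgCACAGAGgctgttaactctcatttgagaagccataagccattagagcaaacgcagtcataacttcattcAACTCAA
Peak downstream of the Bdnf-207, Bdnf-208 and Bdnf-210 start, chr2:109676396-109676540: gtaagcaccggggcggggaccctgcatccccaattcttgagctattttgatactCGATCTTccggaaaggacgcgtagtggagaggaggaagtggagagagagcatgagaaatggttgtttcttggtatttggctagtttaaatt
Peak downstream of the Bdnf-206 start, chr2:109677231-109677490: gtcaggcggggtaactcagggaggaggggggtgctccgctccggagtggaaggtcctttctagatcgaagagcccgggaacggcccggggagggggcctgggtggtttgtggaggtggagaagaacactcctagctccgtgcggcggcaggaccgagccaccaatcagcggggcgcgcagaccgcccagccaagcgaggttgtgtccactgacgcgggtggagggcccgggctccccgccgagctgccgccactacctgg
Peak over the Bdnf-209 start, chr2:109692301-109692435: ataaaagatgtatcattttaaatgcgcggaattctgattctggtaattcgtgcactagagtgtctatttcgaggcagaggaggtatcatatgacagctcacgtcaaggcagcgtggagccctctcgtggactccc
Peak by the Bdnf-211, Bdnf-205 and Bdnf-203 starts, chr2:109693303-109693562: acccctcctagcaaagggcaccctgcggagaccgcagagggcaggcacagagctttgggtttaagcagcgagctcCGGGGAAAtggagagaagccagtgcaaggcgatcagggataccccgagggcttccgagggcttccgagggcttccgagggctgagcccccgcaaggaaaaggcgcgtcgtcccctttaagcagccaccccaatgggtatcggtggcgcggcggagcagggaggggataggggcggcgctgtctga
Peak downstream of the Bdnf-204 start, chr2:109694921-109695120: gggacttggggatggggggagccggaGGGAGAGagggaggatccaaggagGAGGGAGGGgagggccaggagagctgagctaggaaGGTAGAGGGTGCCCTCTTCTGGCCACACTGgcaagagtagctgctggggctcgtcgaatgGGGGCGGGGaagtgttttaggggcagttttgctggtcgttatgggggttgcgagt
Bdnf intron peak, chr2:109678101-109678360: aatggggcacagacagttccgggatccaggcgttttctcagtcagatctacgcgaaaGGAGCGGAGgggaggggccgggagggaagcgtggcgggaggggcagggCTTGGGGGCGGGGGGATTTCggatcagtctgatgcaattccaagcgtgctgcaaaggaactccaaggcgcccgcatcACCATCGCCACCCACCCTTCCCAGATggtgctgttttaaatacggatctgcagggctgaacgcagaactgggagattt

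In the 5′ group, the start site of Bdnf-201 lies at the 5′ end of the gene and had signals of 0.925 and 0.74 in replicates 1 and 2 (mean 0.832 ± 0.131, SD, n = 2) from a peak whose centre is 769 bp upstream. A weaker peak over the first exon had signals of 0.489 and 0.384 (mean 0.437 ± 0.0743). The upstream peak is 1020 bp wide and also covers most of Gm20638, a processed transcript on the same strand, so it cannot be assigned to Bdnf alone. The start site shared by Bdnf-207, Bdnf-208 and Bdnf-210, 1197 bp into the gene, had a peak of 0.916 and 0.696 (mean 0.806 ± 0.155) just downstream. That peak also lies beside the start of Gm45346, an antisense gene. The start site of Bdnf-206, at 2332 bp, had the highest promoter signal of this group, 1.67 and 1.46 (mean 1.56 ± 0.153). The peak of Bdnf-206 was higher than the others of this group in both libraries, by more than the spread of the replicates.

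In the middle group, the start site of Bdnf-209, 17736 bp into the gene, had signals of 0.843 and 0.696 (mean 0.77 ± 0.104) and its start base lay inside the peak. In the common numbering of the 5′ exons this is exon IV, whose promoter is known for its response to neuronal activity. The next peak, 800 bp wide, reached the windows of 3 start sites, Bdnf-211, Bdnf-205 and Bdnf-203, with 1.33 and 1.02 (mean 1.17 ± 0.219). A neighbour over the first exons of Bdnf-203 and Bdnf-204 had 0.804 and 0.499 (mean 0.652 ± 0.215). The strongest peak in any Bdnf window reached that of Bdnf-204 with 1.79 and 2.33 (mean 2.06 ± 0.383), and its centre lies 552 bp downstream of the start, in the intron. The exon IV promoter was thus among the weaker ones of the gene, below those of Bdnf-206 and Bdnf-205 in both libraries. The far start site, Bdnf-202 at 34683 bp, had no peak in either library, and the nearest shared peak was 14263 bp away. RefSeq lists a further start site 13538 bp from the nearest GENCODE one, close to the coding exon, and no peak lay there either.

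**Figure D2:**
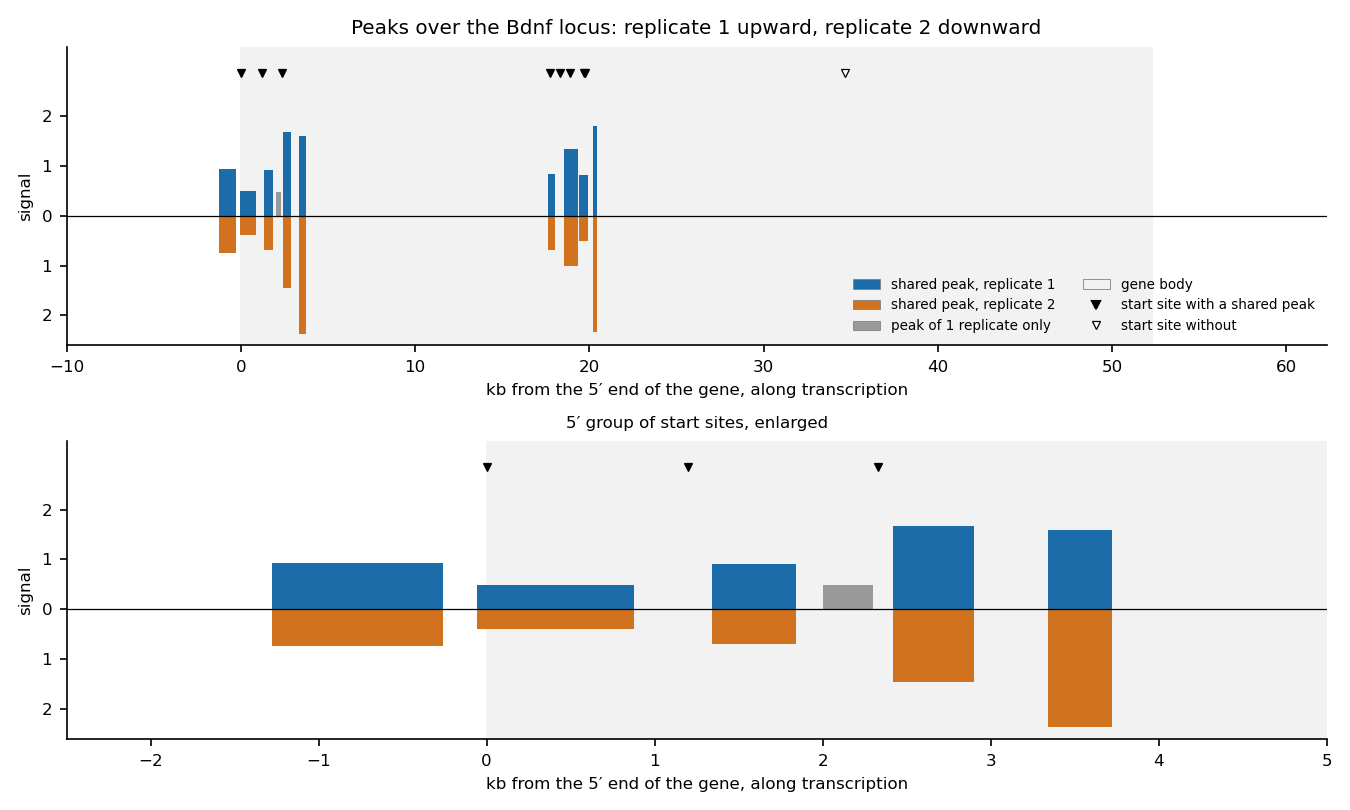
Peaks over the Bdnf locus, with distance from the 5′ end of the gene in kb and peak signal (authors' units) upward for replicate 1 and downward for replicate 2. Coloured bars are shared peaks, the grey bar a peak of replicate 1 only, and filled or open triangles are start sites with or without a shared peak. The 9 shared peaks stand in 2 clusters, and none lies in the last 31887 bp before the 3′ end.

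The whole Bdnf locus held 10 merged peaks, 9 of them shared, which is at percentile 94.3 among the 200 protein-coding loci of closest length (median 3). Of the 9, 8 reached a start-site window, a count at percentile 99.9 over all protein-coding genes, for which the median is 1. Ntrk3, with 4 such peaks, was at percentile 98 and Ntrk2, with 3, at percentile 94.5. The median gene has 3 start sites, against 9 in Bdnf. The remaining shared peak, 3.53 kb into the gene in an intron, had 1.59 and 2.36 (mean 1.98 ± 0.544). It was nearly as strong as the intronic peak that reaches the Bdnf-204 window. No shared peak was found in the 31887 bp from 109695121 to the 3′ end, a stretch that includes the coding exon. Between the libraries, 7 of the 9 were higher in replicate 1, and the 2 exceptions were the peaks at 3.53 and 20.3 kb. Over the genome replicate 2 was higher at 60.6% of shared peaks.

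The Bdnf locus held 48 footprints in replicate 1 and 40 in replicate 2, which overlapped in 21 stretches. The peak upstream of Bdnf-201 and the one by Bdnf-205 held 5 of these each, the peaks at 3.53 and 20.3 kb 3 and 4. Of the 21, 3 were at least 20 bp wide, a width chosen after the values were seen, and all 3 lay in the peaks at 3.53 and 20.3 kb. The widest covered 30 bp (109695006 to 109695035) in the Bdnf-204 peak, printed above as the longest run of capitals. The Bdnf-206 and Bdnf-209 stretches printed above hold no capitals, since the shared footprints of these peaks lie in their untranslated first exons. The windows of 7 of the 8 accessible start sites held between 27 and 44 CpG dinucleotides, against a median of 28 over all start sites. The Bdnf-205 window, with 69, was at percentile 78.4, and the inaccessible Bdnf-202 window held 8.

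A motif search gave 1 rare match in Bdnf. The letters of each motif were sought on both strands of all 41 windows, and the share of all start-site windows of protein-coding genes that hold them was counted in the same way. An RE1 element, the site of the repressor REST, matched in 1 of the 41 windows and in 0.0299% of all windows. It lies 148 bp downstream of the start site of Bdnf-207, inside the shared peak there and in no footprint of both libraries, with the fixed letters in capitals.
RE1 match in Bdnf, chr2:109676045-109676064: TTCAGcACCttGGACAGagC
The full CRE, TGACGTCA, the site of CREB, was in none of the 41 windows and in 2.85% of all windows. Its core TGACG was in 17 of 41, against 46.4% of all windows, and 1 of these matches lies 35 bp upstream of the start of Bdnf-209. It can be read in the printed Bdnf-209 sequence as its reverse complement, cgtca, outside any footprint of both libraries. The USF E-box CACGTG was in 7 of 41 windows (16.9% of all), the NEUROD E-box CAGATGG in 4 (16.9%), AP-1 (TGACTCA or TGAGTCA) in 2 (12.8%), SP/KLF (GGGCGG) in 28 (54.2%) and MEF2 in 5 (9.54%). The letters of EGR (GCGTGGGCG, 1.65% of all windows), the POU octamer (ATGCAAAT, 3.81%), CTCF (1.06%), NFI (0.0802%) and NRF1 (2.18%) were in none of the 41. Overlapping windows of neighbouring start sites count the same match more than once.

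Ntf3 spans 65499 bp of chromosome 6 (126101412 to 126166910, minus strand), and had a weak shared peak by 1 of its 3 GENCODE start sites and a stronger one inside the gene. The start sites of Ntf3-201 and Ntf3-202 had no peak within 500 bp in either library. Their windows held 35 and 34 CpG dinucleotides. The third start site, Ntf3-203, with 51 CpG dinucleotides in its window, had a shared peak of 0.354 and 0.437 (mean 0.395 ± 0.059, SD, n = 2), centred 387 bp downstream. It rests on 73 and 91 cuts if each step of the signal is 1 cut, and it is absent from the smaller peak lists. The stretches of significant cutting that touch this peak had a best FDR of 0.0311 and 0.0147. No base of this start-site window lay in a stretch of at least 50 bp of significant cutting in both libraries. A further peak at the Ntf3-203 start, with a signal of 0.47, was found in replicate 1 only.

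The strongest of the 7 shared peaks of the Ntf3 locus was 3.47 kb from the 5′ end, with signals of 0.988 and 1.02 (mean 1.00 ± 0.0211). It lies in an intron of the GENCODE transcripts, but 233 of its bases are in the first exon of a predicted RefSeq transcript, which starts at 126163882, 1078 bp from the nearest GENCODE start. This peak is within 500 bp of that predicted start. It was followed by peaks at 12.4 kb (mean 0.622 ± 0.18), 4.42 kb (0.533 ± 0.00697), 70.7 kb, beyond the 3′ end (0.528 ± 0.143), and 2.79 kb (0.431 ± 0.069). All 7 were higher in replicate 2, by between 0.03 and 0.60 on the log2 scale. The 7 shared peaks are at percentile 77.8 among loci of like length (median 4). A stretch of 47751 bp in the body of the gene held none. Only 6 stretches lay in footprints of both libraries, and the widest was 9 bp. The sequences of the promoter peak and of the peak at 3.47 kb are printed to show that neither holds a shared footprint in its part outside untranslated regions.
Peak downstream of the Ntf3-203 start, chr6:126164475-126164671: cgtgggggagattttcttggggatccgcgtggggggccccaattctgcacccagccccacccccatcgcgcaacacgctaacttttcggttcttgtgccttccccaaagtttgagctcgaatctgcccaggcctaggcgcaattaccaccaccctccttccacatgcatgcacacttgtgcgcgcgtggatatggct
Ntf3 peak at 3.47 kb, chr6:126163241-126163407: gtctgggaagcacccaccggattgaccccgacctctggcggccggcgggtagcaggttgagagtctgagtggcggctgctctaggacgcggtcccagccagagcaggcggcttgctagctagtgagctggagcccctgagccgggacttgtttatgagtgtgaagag

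Among the receptors, Ntrk2 had the strongest promoter of the 5 genes. It spans 327402 bp of chromosome 13 (58806569 to 59133970, plus strand). Of its 9 start sites 7 had 1 or more of 3 neighbouring promoter peaks in their windows. The first, over the starts of Ntrk2-207, Ntrk2-206 and Ntrk2-204, had signals of 4.17 and 3.6 (mean 3.88 ± 0.399, SD, n = 2). The second, over Ntrk2-201 and Ntrk2-205 and within reach of Ntrk2-202, had 2.97 and 3.24 (mean 3.11 ± 0.192), and the third, over Ntrk2-208 and Ntrk2-209, 1.67 and 1.24 (mean 1.45 ± 0.302). The first peak exceeded the third more than 2-fold in both libraries. The start sites of Ntrk2-210 and Ntrk2-203, 29246 and 65166 bp into the gene, had no peak, and their windows held 9 and 11 CpG dinucleotides where those of the 7 accessible ones held between 49 and 69. The first promoter peak held 9 footprints in replicate 1 and 8 in replicate 2, which overlapped in 8 stretches.

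Inside Ntrk2, 4 shared peaks lay more than 200 kb from the 5′ end with signals close to those of its promoters. The strongest, 267 kb into the gene, had 2.95 and 3.61 (mean 3.28 ± 0.464), and its immediate neighbour 2.3 and 2.32 (mean 2.31 ± 0.0166). One at 286 kb had 1.86 and 2.26 (mean 2.06 ± 0.281) and one at 205 kb 1.6 and 1.47 (mean 1.54 ± 0.0913). All 4 are intronic and were found in both smaller peak lists. The longest stretch without a shared peak was 76401 bp. The sequence of the peak at 267 kb is printed for its footprint of 33 bp in both libraries, the longest run of capitals, and beside it the part of the first promoter peak that lies outside annotated exons.
Peak over the Ntrk2-207 start, chr13:58806401-58806471: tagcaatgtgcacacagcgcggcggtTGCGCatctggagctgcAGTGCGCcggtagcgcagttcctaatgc
Ntrk2 intron peak, chr13:59073641-59073880: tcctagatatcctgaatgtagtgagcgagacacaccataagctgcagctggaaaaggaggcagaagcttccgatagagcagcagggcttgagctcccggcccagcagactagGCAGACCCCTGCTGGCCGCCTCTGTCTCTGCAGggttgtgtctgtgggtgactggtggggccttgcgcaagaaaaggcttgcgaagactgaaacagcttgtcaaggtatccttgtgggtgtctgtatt

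The 3′ end of Ntrk2 stood apart from the rest of the locus and between the libraries. Over 14816 bp, from 59127625 to 59142440, lay 26 merged peaks with signals from 0.0672 to 0.46, where the lowest signal elsewhere in the locus was 0.48. Replicate 2 alone had 21 of them, replicate 1 alone had 1, and 4 were shared. The stretch was picked for its weak peaks after seeing the data. Its low signals beside the rest of the locus therefore follow in part from that choice. The stretch covers the last 6346 bp of the annotated gene, over the last exon of Ntrk2-201 and Ntrk2-207, and the 8470 bp beyond it. Significant cutting covered 2261 bp of it in replicate 1 and 11400 bp in replicate 2. The lowest FDR in the stretches of significant cutting that touch the shared peaks there was 4.96e-11 in replicate 1 and 2.21e-20 in replicate 2. These stretches can reach beyond a peak, so the lowest value need not lie inside one. Over the genome 23.4% of merged peaks had a mean signal below 0.3. Of all peaks listed for replicate 1 19.3% had a signal below 0.3, and of all those listed for replicate 2 15.2%. Among shared peaks, of which the lowest 5% lie below 0.299, 3 of the 4 here were at percentiles 2.21, 2.79 and 3.57. The whole Ntrk2 locus held 17 shared peaks of 52 merged (32.7%), and 13 of 26 (50%) without this stretch. Its footprints numbered 78 and 85 with the stretch and 67 and 47 without it, and those of both libraries 27 and 25. Its base pairs accessible in both libraries were 7999 with and 5738 without it. Why the libraries differ here was not tested.

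**Figure D3:**
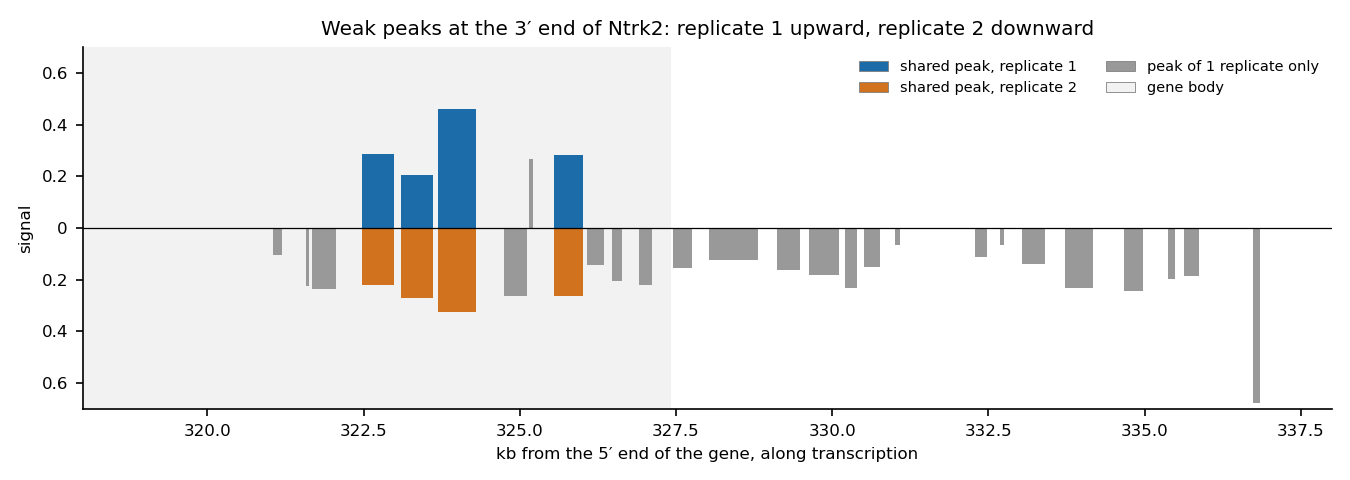
Peaks at the 3′ end of Ntrk2, with distance from the 5′ end of the gene in kb and peak signal (authors' units) upward for replicate 1 and downward for replicate 2. Coloured bars are the 4 shared peaks, grey bars peaks of 1 library, and the gene body is shaded. The run of 21 weak peaks found only in replicate 2 continues past the end of the gene.

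Ntrk3 is the longest of the 5 genes, with 562054 bp of chromosome 7 (78175959 to 78738012, minus strand), and its accessible promoter was not at its 5′ end. The 2 start sites at the 5′ end, which serve Ntrk3-209, Ntrk3-215 and Ntrk3-219, had no peak in either library. About 160 kb inside the annotated gene, 3 neighbouring shared peaks reached the windows of 7 start sites, those of Ntrk3-220, Ntrk3-201, Ntrk3-214, Ntrk3-202, Ntrk3-204, Ntrk3-205 and Ntrk3-206. The start base lay in a peak at all of these except Ntrk3-205 and Ntrk3-206, which are 17 and 11 bp from one. The signals of the peaks were 1.28 and 1.43 (mean 1.35 ± 0.101), 1.26 and 1.03 (mean 1.14 ± 0.164), and 0.993 and 0.97 (mean 0.982 ± 0.0162). The first of these was above the last in both libraries. It also reaches the start of Gm9885, so it cannot be assigned to Ntrk3 alone. Of the 19 start sites only 4 belong to transcripts that GENCODE tags as basic, its set of better supported models, and all 4 are among these 7.

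The eighth accessible start site of Ntrk3, that of Ntrk3-218, lies 19792 bp from the 5′ end and had 1.11 and 1.25 (mean 1.18 ± 0.0985). The start sites of Ntrk3-217 and Ntrk3-212, at 79903 and 80288 bp, had a peak in replicate 2 only, with a signal of 0.523. The other 7 inaccessible start sites, of Ntrk3-210, Ntrk3-213, Ntrk3-207, Ntrk3-203, Ntrk3-216, Ntrk3-211 and Ntrk3-208, had no peak in either library. Base composition followed the same division: the 7 start sites near 160 kb had between 67 and 89 CpG dinucleotides in their windows and the 11 inaccessible ones between 2 and 17, while the accessible Ntrk3-218 window had 15. In Ntrk2, Ntrk3 and Ntf3 the accessible start sites thus had more CpG dinucleotides than the inaccessible ones, except for Ntrk3-218, which was within the range of the inaccessible ones. Many of these windows overlap, so they are not separate cases, and Ntf3 adds only 1 start site with a weak peak. CpG dinucleotides at accessible and inaccessible start sites were not compared over the genome, so this is not shown to be particular to these genes.

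The Ntrk3 locus held 52 merged peaks, of which 25 were shared, at percentile 83 among loci of like length (median 13). Of these, 20 lay more than 1 kb from every GENCODE start site of any gene. The strongest was 142 kb from the 5′ end, with 1.41 and 2.05 (mean 1.73 ± 0.45), followed by 1 at 169 kb with 1.64 and 1.74 (mean 1.69 ± 0.0749) and 1 at 76.9 kb with 1.54 and 1.26 (mean 1.4 ± 0.193). All 3 exceeded the mean of the strongest promoter peak of the gene, though only the one at 169 kb did so by more than the spread of the replicates. The longest stretch without a shared peak, 105947 bp, lies in the 3′ part of the gene. Between 340 and 399 kb, 5 peaks of replicate 1 alone had signals from 0.0969 to 0.213, weaker than any shared peak of the locus. The promoter peak could not be printed, since nearly all of its bases are annotated as exon outside a coding part in at least 1 transcript, so only the strongest intronic peak is shown, with its shared footprint of 33 bp.
Ntrk3 intron peak, chr7:78595981-78596200: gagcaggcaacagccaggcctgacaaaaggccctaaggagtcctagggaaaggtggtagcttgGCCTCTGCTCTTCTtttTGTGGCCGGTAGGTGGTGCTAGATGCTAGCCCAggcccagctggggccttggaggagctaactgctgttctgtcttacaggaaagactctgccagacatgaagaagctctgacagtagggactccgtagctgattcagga

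Ngfr was the simplest of the 5 loci. It spans 18918 bp of chromosome 11 (95568818 to 95587735, minus strand) and has 1 start site. The promoter peak over that start had signals of 1.2 and 1.05 (mean 1.12 ± 0.106, SD, n = 2). The only other shared peak, 1.32 kb downstream in an intron, was stronger in both libraries, with 2.21 and 2.95 (mean 2.58 ± 0.52). The remaining 3 peaks of the locus, with signals from 0.349 to 0.509, were found in replicate 1 only. With 2 shared peaks the locus was at percentile 32.3 among loci of like length (median 3). The intronic peak carries a shared footprint of 29 bp, the longest run of capitals in its sequence. The promoter peak is printed downstream of its untranslated bases, through the start of the coding sequence, and has no capitals there. In the adult brain p75 is best known from cholinergic neurons of the basal forebrain, whose cell bodies lie outside the cortex. Their 5 marker genes had promoter signals between 0.188 and 0.605 where they had a peak, below that of Ngfr, and the part of such cells in the result was not tested.
Peak over the Ngfr-201 start, chr11:95587461-95587558: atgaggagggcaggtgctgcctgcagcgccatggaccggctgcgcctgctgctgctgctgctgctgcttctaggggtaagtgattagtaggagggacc
Ngfr intron peak, chr11:95586301-95586520: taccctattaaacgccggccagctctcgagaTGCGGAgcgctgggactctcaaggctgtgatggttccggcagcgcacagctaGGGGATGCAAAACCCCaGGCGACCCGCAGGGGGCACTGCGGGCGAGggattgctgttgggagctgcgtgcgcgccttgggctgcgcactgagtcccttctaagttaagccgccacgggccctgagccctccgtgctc

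**Figure D4:**
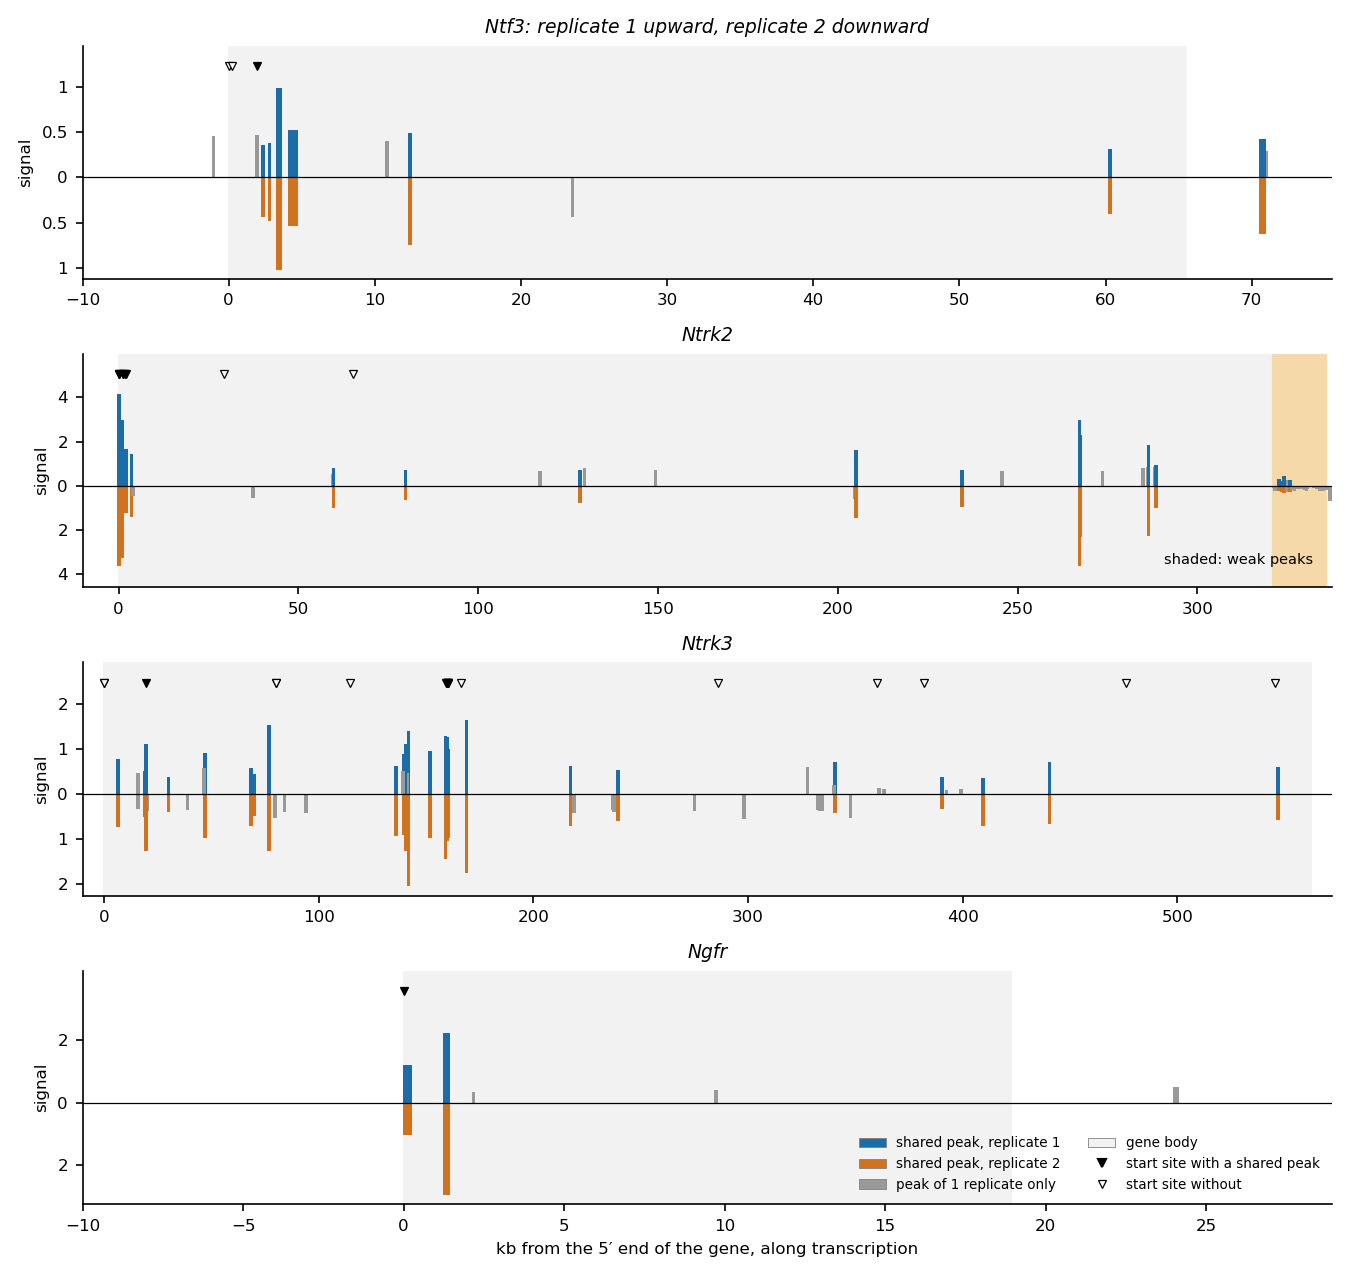
Peaks over the loci of Ntf3, Ntrk2, Ntrk3 and Ngfr, drawn as in the Bdnf map, each on its own scale of distance (kb) and signal (authors' units), with narrow peaks widened to stay visible. The orange band marks the weak peaks at the 3′ end of Ntrk2. Ntf3 has no peak at its 2 outermost start sites, Ntrk2 has strong peaks at both the 5′ end and near 267 kb, and the promoter peaks of Ntrk3 stand near 160 kb.

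Set side by side, the loci differed in how much of their accessible DNA lay at start sites. Of the 60 shared peaks of the 5 loci, 41 lay more than 1 kb from every GENCODE start site, and these were 1 of 9 in Bdnf, 5 of 7 in Ntf3, 14 of 17 in Ntrk2, 20 of 25 in Ntrk3 and 1 of 2 in Ngfr. Against loci of like length the distal count was at percentile 39 for Bdnf, 80.8 for Ntf3, 80.5 for Ntrk2, 82 for Ntrk3 and 49.8 for Ngfr. The base pairs with significant cutting in both libraries came to 6725 in Bdnf, 1566 in Ntf3, 7999 in Ntrk2, 8053 in Ntrk3 and 920 in Ngfr. That is 9.3% of the Bdnf locus but between 1.38% and 2.36% of the other 4. The loci differ in length, and the matching share was not counted over the genome or over loci of like length. In base pairs Ntrk2 and Ntrk3 had more than Bdnf. Of the 131 merged peaks 45.8% were shared, against 52.2% over the genome. Without the 3′ stretch of Ntrk2 the share was 53.3% of 105. That stretch was picked after seeing the data and holds mostly peaks of 1 library, so leaving it out raises the share. Nothing was left out of the genome's share, so the 53.3% cannot be set against it. Of the 60 shared peaks, 36 were also in both smaller lists, and the matching share over the genome was not counted.

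Footprints were found in both libraries in the windows of 22 of the 41 start sites (53.7%), against 47.6% of all start sites. Over the 5 loci 32.8% of the 259 footprints of replicate 1 and 35.5% of the 245 of replicate 2 overlapped one of the other library, where the genome gave 39.5% and 47%. They overlapped in 91 stretches, 90 of them in shared peaks, with a median width of 8 bp. Of the 91, 9 (9.89%) were at least 20 bp wide, against 16.5% of the 142314 such stretches of the genome: 3 in Bdnf, 3 in Ntrk2, 2 in Ntrk3 and 1 in Ngfr, and 7 of the 9 lay in distal peaks. The other 2 lay in the intronic Bdnf-204 peak and in the first promoter peak of Ntrk2. Of the 60 shared peaks themselves 41 (68.3%) were distal. The share of wide stretches in distal peaks was not counted over the genome, so no link between width and distance is drawn. The letters of CTCF, the architectural zinc-finger protein, had no exact match in any of the 60 shared peaks, taken as 260-bp windows, against 6.21% of the 80522 shared peaks of the genome. With 1 mismatch allowed among its 12 bases, a search added after the sequences were seen, 7 of 60 matched against 18.7% of the genome. Such a match lay in or beside 4 of the 9 wide footprints, those of the Bdnf-204 peak, the Ntrk2 peak at 267 kb, the Ntrk3 peak at 169 kb and the Ngfr intron peak. That is 44.4%, near the 40% of the 23541 stretches of this width over the genome, so it is no feature of these loci. A match says that the letters are there, and does not show that the protein was bound.

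The other genes of the pathway mostly had accessible promoters, with group medians from 1.94 to 4.14, where the median of the 5 genes was 1.35. Of the other ligands and receptors, 7 of 8 had a shared peak at a promoter (median 1.94). The sortilin family, receptors for neurotrophin precursors and for trafficking, were the highest: Sorcs2 with a mean of 3.03 ± 0.0497, Sort1 with 2.76 ± 0.621, Sorl1 with 2.14 ± 0.174, Sorcs1 with 1.94 ± 0.155 and Sorcs3 with 1.20 ± 0.00631 (SD, n = 2). Ntf5, the gene of neurotrophin-4, had no shared promoter peak.

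Of the 13 genes that process precursors, 9 had a shared promoter peak (median 2.41). Serpini1 (neuroserpin, an inhibitor of tissue plasminogen activator) had 5.01 ± 0.344 and Pcsk7 3.5 ± 0.446, and the lowest was Pcsk6 with 0.886 ± 0.193. The extracellular proteases Plg, Mmp3, Mmp7 and Mmp9 had none. All 33 adaptors and kinases that act after Trk receptors had one (median 4.14), from Map2k1 with 7.94 ± 2.87 down to Gab1 with 1.69 ± 0.157 and Camk4 with 1.46 ± 0.459. Of the 10 partners of p75 that were found in the annotation, 9 had one (median 2.27), from Rhoa with 4.52 ± 0.552 and Arhgdia with 3.87 ± 0.348 down to Irak1 with 1.32 ± 0.0772 and Bex3 with 1.12 ± 0.0886, and Bex1 had none. All 17 regulators of Bdnf transcription had one (median 3.36), with Creb1 at 7.09 ± 1.96 and Crtc1 at 4.76 ± 0.135 the highest, and Nfkb1 at 1.21 ± 0.219 and Rest, which encodes the protein of the RE1 site, at 1.15 ± 0.0271 the lowest. In all, 75 of the 81 genes found had a shared promoter peak, against 64.3% of protein-coding genes.

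**Figure D5:**
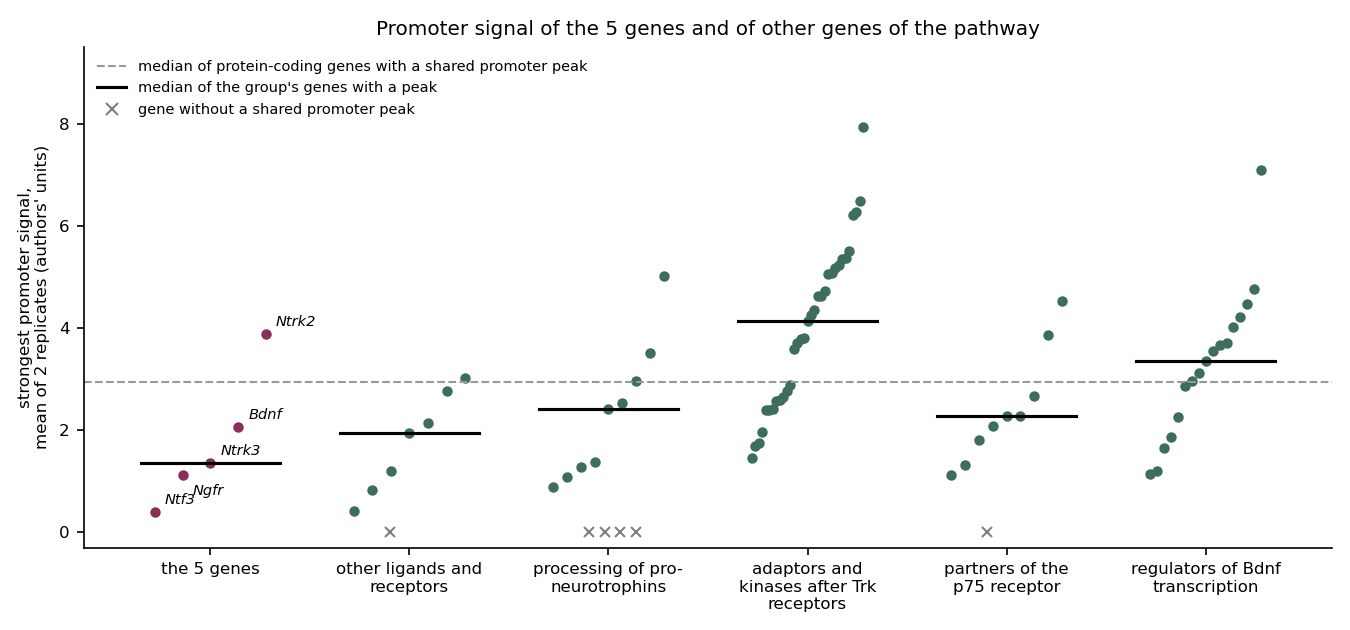
Strongest promoter signal (authors' units, mean of both replicates) of the 5 genes and of the other pathway genes by group, 1 dot per gene, with the median of each group as a bar and genes without a shared promoter peak as crosses at 0. The dashed line is the median of 2.94 over protein-coding genes with a shared promoter peak. Of the 5 genes only Ntrk2 lies above it, while the medians of the adaptors and kinases, at 4.14, and of the regulators of Bdnf, at 3.36, do too.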

How the data were processed

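DNase-seq libraries of the left cerebral cortex of 2 mice were analysed from the processed tables. Per the file headers, the authors derived the peaks, footprints and cut rates from alignments to mm10, and the cut rates were an input of the footprint calls. Aligner and callers: not given in the sources used here. The deposited peak lists hold a signal per peak, and peaks were called per library. The deposited footprint and cut-rate tables hold a q-value, an FDR given as a fraction. Signals were used as deposited. At least 99% of the signals below 1000 steps were whole multiples of 1 step within 0.05 of a step, which is the base for the cuts given above, with scaling per 1 M cuts assumed. Intervals were not computed because counts are inferred only.

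The larger peak list of each library was used, and overlaps of at least 1 bp were merged. Stretches of the cut-rate tables at FDR below 0.05 were joined where they touched and kept from 50 bp. Means and SDs run over 2 libraries, taken as 2 animals from their labelled numbers although the donor entry is shared, so n = 2, and no test was made, because the series has 1 group. The percentile of a locus is its rank among the 200 protein-coding loci nearest to it in length. Start sites came from GENCODE M21 and sequences from the RefSeq copy of GRCm38.p6, the assembly of mm10, by coordinates. The RefSeq promoter table matched that genome in 1642 of 1642 sequences compared. Of 82 entries in the pathway lists 81 were found: Ngfrap1 is an older symbol of Bex3, which is listed itself. Ntf5 had been entered under the regulators of Bdnf and was counted with the ligands. Every start site was accounted for, and peaks are given in full if they reached a start-site window or were among the 5 strongest shared peaks of a locus. Printed sequences depart from the rule first written, a peak's central bases: they are windows of up to 260 bp outside annotated untranslated regions with the most bases in shared footprints. Of the other pathway genes, all ligands and receptors were named, and in other groups the 2 highest, the 2 lowest and those without a peak, except that some genes are not reported here. The members, the gene lists and the motifs were chosen with earlier results of these data known. Other windows, peak lists, overlaps, flanks and FDR limits were tried, as was leaving out each library, and the stretch at the 3′ end of Ntrk2 was left out as an alternative chosen after seeing the data. A CTCF search with 1 mismatch and a footprint width of 20 bp were also chosen after seeing the data. Merging and overlap counting were tested on simulated intervals. Python 3.11.15, numpy 2.4.6, pysam 0.24.0 and matplotlib 3.10.9 were used.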

Additional observations from a re-analysis of the deposited data

How the results depend on the processing

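Of 43 alternative values for the results over the 5 genes and for the promoter signal of each, 35 stayed within 1.5 times the reported count or within the SD of the replicates. The 10 promoter signals with 1 library left out are not counted, since with n = 2 they stay within the SD by construction. Promoter signals with a window of 1000 bp are counted although they cannot fall. Those with the smaller lists were unchanged wherever they had a value. No promoter signal was computed with a window of 250 bp. Start sites joined within 500 bp gave 13 accessible groups in place of 25 start sites. The count of 60 shared peaks became 37 with the smaller peak lists and 31 with only peaks at or above the genome's median signal, and with 1 library left out it ranged from 90 to 101. Leaving out 1 library gave between 245 and 259 footprints in place of 91 shared ones, and between 34601 and 39488 accessible bp in place of 25263, since a single library has no overlap to pass. An FDR limit of 0.001 gave 13323 bp. Without the 3′ stretch of Ntrk2, an alternative added after seeing the data, the counts were 56 peaks, 89 footprints and 23002 bp. Of 76 alternative counts for single genes, 60 were within 1.5 times. Those that were not include Ntf3, whose accessible start site was lost with the smaller lists and with a window of 250 bp, and whose promoter signal therefore has no value with the smaller lists. Ntrk3 had 13 shared peaks with the smaller lists in place of 25, and 4 accessible start sites among basic transcripts. If 1 step is 1 cut, the Ntf3 promoter peak rests on 73 and 91 cuts, and what depth limits beyond that was not tested. No paired analysis was possible because the series has 1 group and no test.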

Other observations

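The accessible start sites of Ntrk2 and Ntrk3 can be set beside the annotation. In Ntrk3 the 4 start sites of basic transcripts all had a shared peak, and all 11 inaccessible ones are among the other 15. In Ntrk2 likewise, the 6 start sites of basic transcripts all had a shared peak, and both inaccessible ones are outside that set. In each gene the basic start sites lie close together and share peaks, so they are not separate cases. The share of basic and of other start sites with a shared peak over the genome was not counted. In Bdnf and Ntf3 the annotation did not divide the start sites this way, since all 9 and all 3 are basic, and 1 of the 9 and 2 of the 3 had no shared peak.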
